A study of Mus musculus with 6 samples.

Results

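The clustered protocadherins are cell surface adhesion proteins of the cadherin superfamily that are best known from neurons, where they give each cell its own surface identity. Their genes stand in a row as alpha, beta and gamma clusters. In the alpha and gamma clusters each large variable exon has its own promoter and is spliced to constant exons shared by the cluster, whereas each beta gene is a single large exon. CTCF and cohesin, which fold chromosomes into loops, are known to act at these promoters and at enhancers outside the clusters, and DNA methylation and histone H3K9 methylation are known to silence variable exons.

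The members were all genes whose names start with Pcdha, Pcdhb or Pcdhg on chromosome 18 in the GENCODE annotation of mm9, together with the ATAC-seq peaks from 200 kb before the first of these genes to 200 kb after the last. There were 25 gene models, of which 24 were coding and 1, Pcdhb20, was a pseudogene, against 22350 coding genes on chromosomes 1 to 19 and X. The region held 22 of the 22698 WT peaks and 19 of the 23656 Spen KO clone 3 peaks on these chromosomes.

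ATAC-seq maps open chromatin through the sites where the Tn5 transposase inserts adapters. The cells were haploid mouse embryonic stem cells (mESCs) with a doxycycline-inducible Xist transgene, cultured in serum and LIF, either with Spen intact (HATX WT) or with Spen deleted (clones 2 and 3). Spen is an RNA-binding corepressor that Xist needs to silence genes. The 6 sample records gave each line at 0 and at 2 µg/ml doxycycline for 48 hr, but the peak lists named the line only, so no value here belongs to a doxycycline state. Spen KO clone 2 was not analysed here, and clone 3 is 1 clone, so clone and genotype cannot be told apart.

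Each list kept the peaks that passed the authors' Irreproducible Discovery Rate (IDR) threshold of 0.05 between 2 technical replicates. Each peak carried a value per replicate on a scale that was not named, and whether it is comparable between the lists is not stated. The mean of both values is called the score here, and its percentile is the percent of peaks in the same list with a lower score. A peak was called shared where 1 bp or more of it lay in a peak of the other line. Each line had 1 list, so no difference between the lines could be set against the spread of replicates, no test was made, and presence in a list is not a measure of read counts. The read depth is unknown. Shares carry 95% Wilson intervals, which cover counting error only.

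Of the defining embryonic stem cell genes, Pou5f1 and Zfp42 had a promoter peak in both lists, Sox2 in WT only, Klf4 and Esrrb in clone 3 only, and Nanog in neither. In all, 3 of 6 of these genes had one in WT and 4 of 6 in clone 3, where 44.8% and 40.9% of all coding genes had one. None of the 4 fibroblast markers or the 2 mesoderm markers had a promoter peak in either list. Of the neural markers found in the annotation, Pax6 had one in both lists and Neurod1 in clone 3 only. Of 3 endoderm markers, Foxa2 had one in both lists, Gata4 in WT only and Sox17 in neither.

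The genes spanned 912 kb of chromosome 18, from 37089939 to 38001527 (mm9), all on the plus strand. The alpha cluster covered 257 kb from 37089939 to 37347311, the beta cluster 256 kb from 37424652 to 37681073, and the gamma cluster 168 kb from 37833989 to 38001527. Gaps of 77.3 kb and 153 kb separated these annotated models. By the open reading frames described below, the gamma cluster begins earlier, inside the second gap. The alpha exons that the annotation holds stood under a model named Pcdha11, apart from Pcdha3, and its gamma exons under a model named Pcdhgc5, so the 25 models held 47 transcript starts, 11 alpha, 26 beta and 10 gamma. Of the 20 transcripts under these merged names, 7 were matched to a RefSeq symbol by an equal genomic length, and these symbols are used below.

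Peaks were fewer per length over the genes than in the flanks, but not fewer than over the chromosomes. The span held 12 WT peaks (1.32 per 100 kb) and 10 clone 3 peaks (1.10 per 100 kb), against 2.50 and 2.25 per 100 kb in the flanks. The density over chromosomes 1 to 19 and X was 0.860 in WT and 0.896 in clone 3, and over chromosome 18 it was 0.711 and 0.787. The gamma cluster held the most peaks in both lists. The alpha cluster held 1 peak in each list, the beta cluster 1 in WT and 3 in clone 3, and the gamma cluster 7 in WT and 4 in clone 3. The longest stretch inside the span without a peak ran for 231 kb in WT, from the gap after the alpha genes to Pcdhb14, and for 267 kb in clone 3, from Pcdhac1 to Pcdhb8. The 159 kb at the start of the alpha cluster, which hold most of its variable exons, had no peak in either list.

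**Figure D1:**
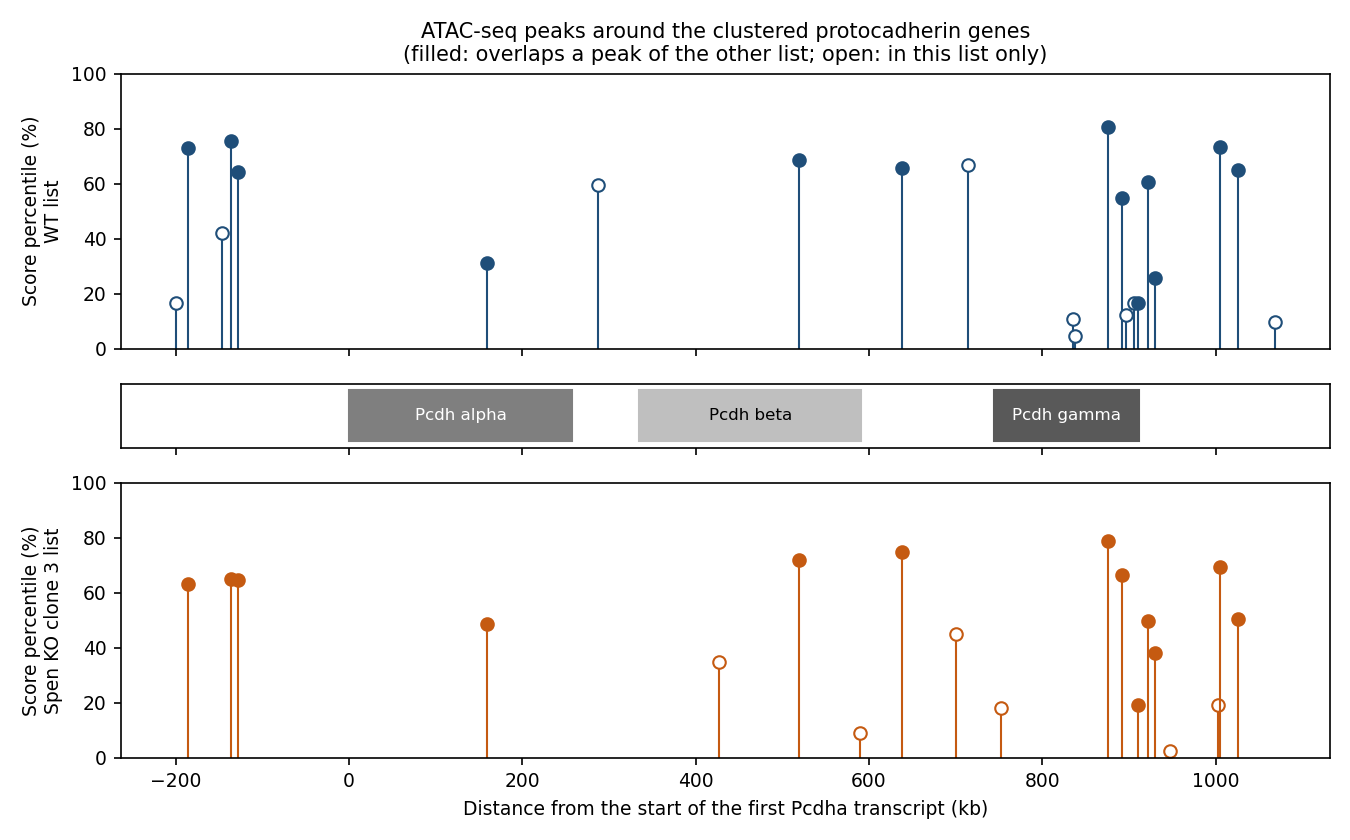
Peaks of the WT list (top) and the Spen KO clone 3 list (bottom) by distance in kb from the first Pcdha start, with the score percentile within the list as height. Filled points overlap a peak of the other list, open points do not, and grey bars mark the alpha, beta and gamma clusters, of which alpha holds 1 peak in each list.

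Few protocadherin promoters carried a peak. A promoter was taken as 1000 bp before to 100 bp after a transcript start. In each list 2 of 24 coding models had a promoter peak (8.33%, interval 2.32 to 25.8), and they were the merged models Pcdha11 and Pcdhgc5. Among all coding genes the share was 44.8% in WT (10004 of 22350) and 40.9% in clone 3 (9136 of 22350), above the upper end of the protocadherin intervals. Each merged model owed its peak to a C-type exon, Pcdhac1 in alpha and Pcdhgc3 in gamma. C-type exons are the group at the end of the alpha and gamma clusters that neurons are known to use more uniformly than the other variable exons. The last alpha start and the gamma starts after Pcdhgc3 lie at these ends too, and had no promoter peak in either list. All 26 beta starts lacked a promoter peak in both lists.

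Because the merged models hide variable exons and the annotation lacks others, open reading frames of at least 700 codons were also read from the mm9 sequence. This step was chosen after the values had been seen. It found 61 frames on the plus strand. Of these, 3 were left out as repeats, since at most 4.69% of their 75-base words, the length of a read, occurred once in the genome. The other 58 were taken as protocadherin frames, 14 alpha, 22 beta and 22 gamma. Of the gamma frames 20 began inside the gamma model and the rest before it. After this cut and grouping there were as many as RefSeq lists for each cluster. In annotated exons lay 41 of the 58. A peak lay at the start of 3 of the 58 frames in WT (5.17%, interval 1.77 to 14.1) and of 2 in clone 3 (3.45%, interval 0.951 to 11.7). They were Pcdhac1 and Pcdhgc3 in both lists and Pcdhga12 in WT.

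**Figure D2:**
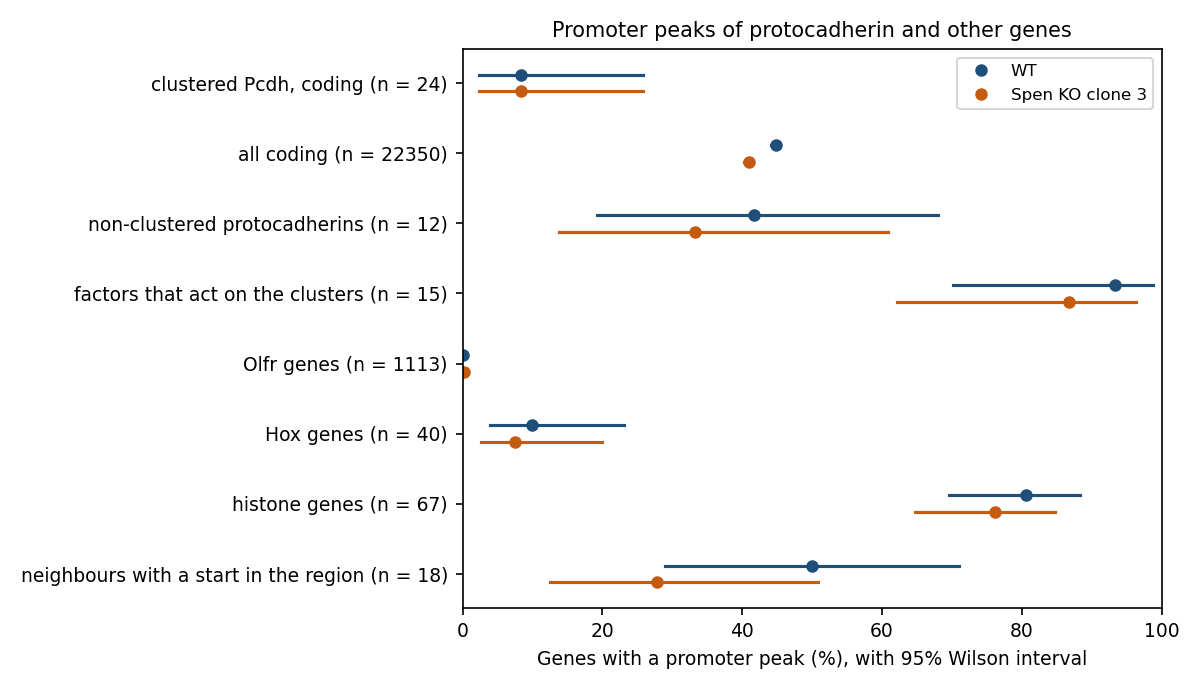
Percent of genes with a promoter peak in the WT list (blue) and the Spen KO clone 3 list (orange), with 95% Wilson intervals as bars and the number of gene models beside each name. The clustered protocadherins stand at 8.33% in both lists, against 44.8% and 40.9% of all coding genes.

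The peak at Pcdhac1 was shared. In WT it ran from 37249437 to 37249839 (403 bp), with values of 16.5 and 15.8 in the replicates, a score of 16.1 and a percentile of 31.1. In clone 3 it ran from 37249366 to 37249887 (522 bp), with values of 15.1 and 20.1, a score of 17.6 and a percentile of 48.5. The rank was higher in clone 3 by 17.4 percentile points. Its midpoint lay 152 bp before the start in WT and 164 bp before it in clone 3.

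The peak at Pcdhgc3 was the highest-ranking in the span in both lists. In WT it ran from 37965773 to 37966226 (454 bp), with values of 31 and 29.1 and a percentile of 80.7. In clone 3 it ran from 37965757 to 37966206 (450 bp), with values of 30.0 and 22.0 and a percentile of 78.8. The rank thus differed by 1.88 percentile points. The midpoint lay 65 bp before the start in WT and 83 bp before it in clone 3.

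Pcdhga12 had 2 peaks in WT and none in clone 3. One ran from 37925421 to 37925780 (360 bp), 366 bp after the annotated start by its midpoint and ahead of the open frame, with values of 10.8 and 12.1 and a percentile of 10.6. The other ran from 37927721 to 37928054 (334 bp) in the last part of the exon and at the start of the antisense lincRNA Gm16882, with values of 8.51 and 10.2 and a percentile of 4.46. Both ranked low. Of all WT peaks between percentiles 10 and 20, 53.5% had no partner in clone 3, and below percentile 10 the share was 74.2%.

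Over the beta genes, peaks lay inside exons rather than at starts. A peak in Pcdhb14 was shared. In WT it ran from 37609303 to 37609773 (471 bp), with values of 25.9 and 23.2 and a percentile of 68.6. In clone 3 it ran from 37609394 to 37609816 (423 bp), with values of 28.5 and 18.1 and a percentile of 72.1. Its percentile was higher in clone 3 by 3.44 points.

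The other beta peaks were found in clone 3 only. The peak in Pcdhb8 ran from 37516601 to 37517090 (490 bp), with values of 15.1 and 15.9, a percentile of 35 and an IDR of 0.0469, close to the threshold. The peak in Pcdhb22 ran from 37679950 to 37680331 (382 bp), with values of 10.8 and 9.08 and a percentile of 8.85. Neither stood high in its list. Between percentiles 30 and 40 of the clone 3 list 36% of all peaks had no WT partner, and below percentile 10 the share was 72.8%.

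A further clone 3-only peak, from 37841960 to 37842261 (302 bp), lay in an intron by the annotation but inside a gamma frame that the annotation lacks. Its values were 13.6 and 11.1 and its percentile 18.1. Only 36.8% of its 75-base words, the length of a read, occurred once in the genome, and it matched another gamma frame at 99.0% identity.

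The peaks inside variable exons shared a position. The 6 of them that lay away from the frame start, 2 in WT and 4 in clone 3, fell in 5 frames. These were Pcdhb8, Pcdhb14, Pcdhb22, Pcdhga12 and the unannotated gamma frame. The peak in Pcdhga12 also lay at the start of the antisense lincRNA Gm16882. The midpoints of the 6 peaks lay at 82.1% to 88.3% of the frame, 282 to 419 bp before its end. This pattern was noticed in the data and was not tested. The last 500 bp of the frame were richer in G and C than the rest in 5 of these 5 frames, and also in 21 of 22 beta frames, 9 of 14 alpha frames and 11 of 22 gamma frames. The sequence under these peaks aligned to other frames of the same cluster, and that under the Pcdhb8 peak also to frames of other clusters. The Pcdhb8 sequence aligned to 40 other frames, among them 21 of the 21 other beta frames at a median identity of 87.4%. That under the Pcdhb22 peak aligned to 20 of 21 at 87.2%. For Pcdhb14 it was 20 of 21, at 85.5% in WT and 83.3% in clone 3. Fewer gamma frames matched, with 11 of 21 at 71.4% for Pcdhga12 and 6 of 21 at 85.1% for the unannotated frame. At a length of 75 bases every word under the Pcdhb8, Pcdhb14 and Pcdhb22 peaks was unique in the genome. At 36 bases 74.3% were unique for Pcdhb8, 77.8% (WT) and 85.1% (clone 3) for Pcdhb14 and 78.1% for Pcdhb22.

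The core of the CTCF motif, a consensus of 12 positions searched on both strands, occurred 20 times in the span. Of these matches, 19 lay inside variable exons. In the alpha cluster 6 frames held it, all on the plus strand and 456 to 483 bp after the frame start. In the beta cluster 13 frames held it, all on the minus strand and 121 to 202 bp before the frame end. None of the 22 gamma frames held it. None of the 47 annotated promoters did either (interval 0 to 7.56%), and the share among other coding promoters, 1.12% (249 of 22326), lies inside that interval. Only the match in Pcdhb14 lay under a peak, in both lists. The match in Pcdhb22 lay 4 bp beyond the end of its clone 3 peak. Across the lists 2.97% of WT peaks and 2.82% of clone 3 peaks held the core, so the 1 of 12 and 1 of 10 peaks of the span are too few to set against these shares. A match is a description of letters and not a bound site. The search took exact matches to the consensus only, so the lack of a match does not show that a CTCF site is absent.

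**Figure D3:**
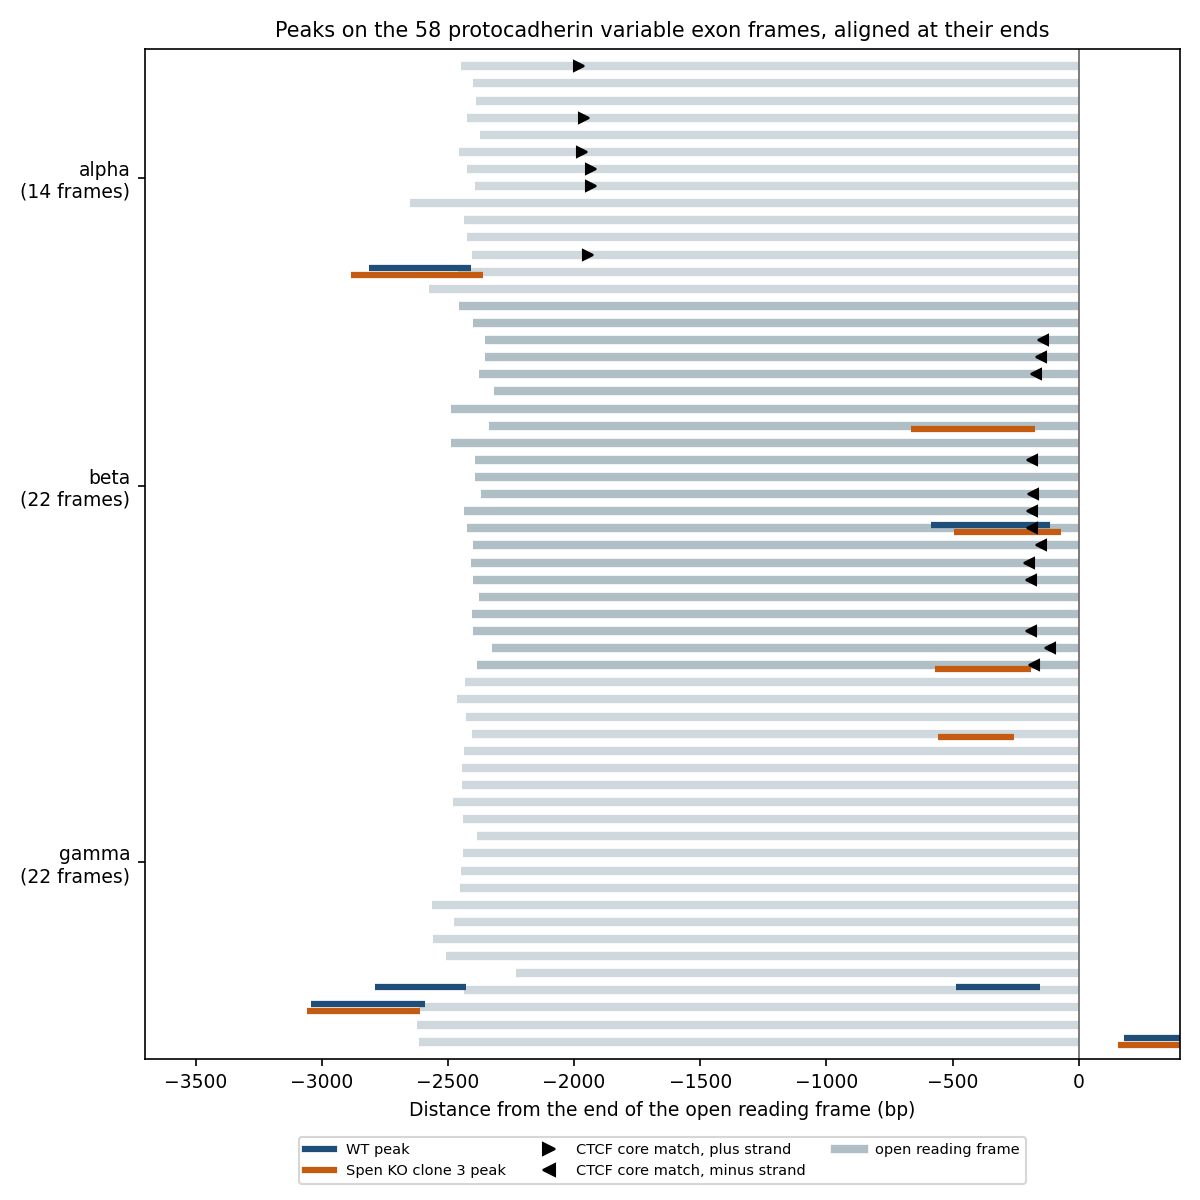
The 58 protocadherin variable exon frames, one per row in genome order and aligned at their ends, with distance from the frame end in bp on the x axis. Blue and orange bars are WT and Spen KO clone 3 peaks, and triangles are CTCF core matches pointing right on the plus strand and left on the minus strand. The 6 peaks inside frames away from the frame start have their midpoints 282 to 419 bp before the end. The one in Pcdhga12 also lies at the start of the lincRNA Gm16882. The 13 beta matches lie near the end on the minus strand.

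Peaks outside variable exons made up the rest of the span. An intergenic peak between the alpha genes and Pcdhb1, an interval known to hold regulatory elements of the alpha genes, was found in WT only. It ran from 37377489 to 37378091 (603 bp), 46862 bp before the Pcdhb1 start, with values of 26.3 and 17.1 and a percentile of 59.6. The nearest CTCF core match lay 356 bp from it. Between percentiles 50 and 60 of the WT list, 17.9% of all peaks had no clone 3 partner.

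An intergenic peak between Pcdhb22 and Slc25a2 was shared. In WT it ran from 37727814 to 37728244 (431 bp), with values of 22.8 and 24.3 and a percentile of 65.7. In clone 3 it ran from 37727726 to 37728247 (522 bp), with values of 19.7 and 28.9 and a percentile of 74.8. Its percentile was higher in clone 3 by 9.12 points.

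Taf7, which encodes a subunit of the general transcription factor TFIID and lies between the beta and gamma clusters, had a promoter peak in WT only. It ran from 37803643 to 37804086 (444 bp), with values of 25.9 and 22.0 and a percentile of 66.9, the highest of the WT-only peaks in the region. Between percentiles 60 and 70 of the WT list 8.77% of all peaks had no clone 3 partner. In clone 3 the nearest peak lay 12.9 kb away, an intergenic peak near Slc25a2 from 37789966 to 37790768 (803 bp), with values of 17.6 and 16.5 and a percentile of 45.0. That peak was clone 3-only and none of its 75-base words was unique in the genome.

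The remaining peaks lay after the last gamma frame. A shared peak in an untranslated or noncoding part of the first exon of the gamma transcript with the last start, from 37982125 to 37982616 in WT (492 bp), had values of 24.5 and 16.5 and a percentile of 54.6. In clone 3 it ran from 37982098 to 37982631 (534 bp), with values of 17.4 and 25.7 and a percentile of 66.5. Its percentile was higher in clone 3 by 11.9 points.

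A shared peak near the 3′ end of the cluster, from 38000397 to 38000802 in WT (406 bp), had values of 13.9 and 12.7 and a percentile of 16.5. In clone 3, from 38000401 to 38000768 (368 bp), it had values of 13.1 and 12.1 and a percentile of 19.3. Introns held WT-only peaks at 37985940 to 37986249 (310 bp, percentile 12.2) and 37995803 to 37996270 (468 bp, percentile 16.5). Between percentiles 10 and 20 of the WT list 53.5% of all peaks had no clone 3 partner.

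**Figure D4:**
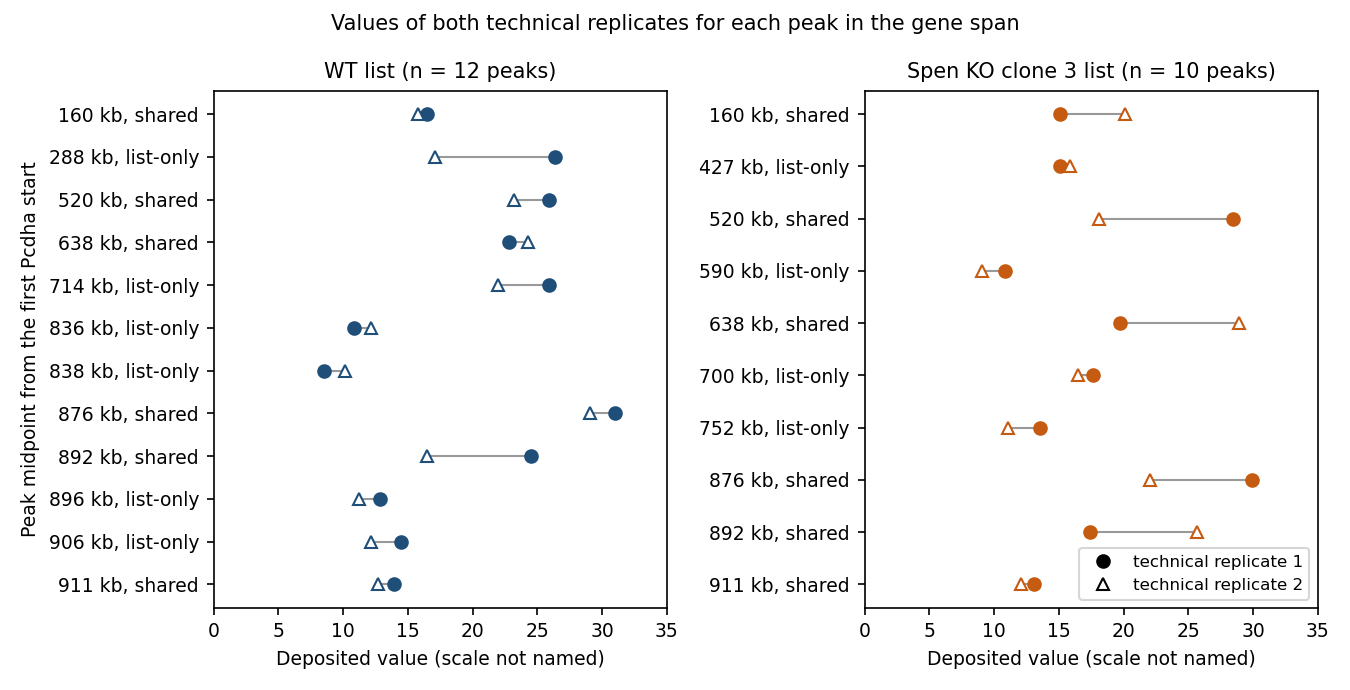
Deposited values of technical replicate 1 (circles) and replicate 2 (triangles), on a scale that was not named, for the 12 WT peaks (left) and 10 Spen KO clone 3 peaks (right) of the gene span, labelled by midpoint in kb from the first Pcdha start. Values are to be read within a panel, where the peak at Pcdhgc3 has the highest score of its list's span peaks.

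Over the region 9 of 22 WT peaks had no clone 3 partner, against 25.7% of all WT peaks (5828 of 22698). For clone 3 the count was 6 of 19, against 28.6% of all clone 3 peaks (6764 of 23656). Inside the span it was 6 of 12 in WT and 4 of 10 in clone 3. Among span peaks the shared ones ranked higher, with a median percentile of 60.2 in WT and 69.3 in clone 3, against 14.3 and 26.6 for those in 1 list. This ordering was also that of the whole lists, where the medians were 61.8 and 62.3 for shared peaks and 20.2 and 23.1 for the others. Median widths were 438 bp in WT and 470 bp in clone 3 for span peaks, 542 and 390 bp for flank peaks, and 546 and 526 bp for the whole lists. Of the list-only peaks in the region, 2 of 9 in WT and 0 of 6 in clone 3 reached the median score of the whole list. Of all list-only peaks 12% in WT (700 of 5828) and 16.2% in clone 3 (1098 of 6764) did.

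The 13 shared peaks moved in rank in both directions. The percentile in clone 3 minus that in WT had a median of 0.23, with 7 peaks higher in clone 3 and 6 lower. Inside the span 5 of 6 ranked higher in clone 3, with a median of 6.28. Over all shared peaks of the WT list the median was -0.00367, and the middle 90% ran from -28.6 to 30.5. All 6 span peaks lay inside that range.

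**Figure D5:**
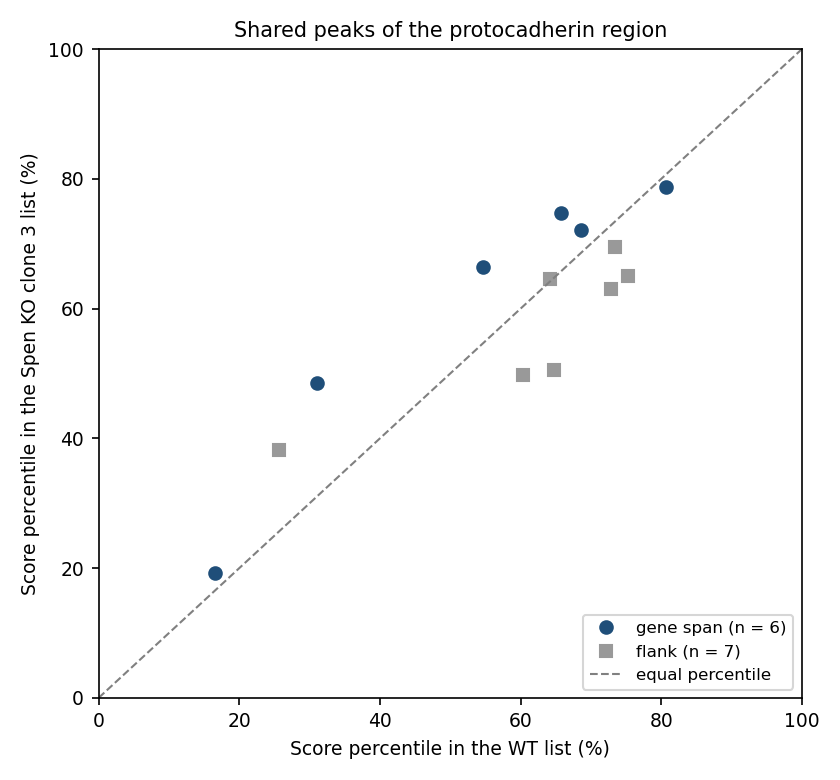
Score percentile in the WT list (x axis) and the Spen KO clone 3 list (y axis) of the 13 shared peaks, with circles for the 6 in the gene span, squares for the 7 in the flanks and a dashed line at equal percentile. Of the span peaks 5 lie above the line and 1 below, with differences from -1.88 to 17.4 percentile points.

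In WT the highest-scoring flank peaks lay at the starts of Zmat2 (score 27.3, percentile 75.3), Diap1 (26.4, 73.4) and the shared promoter of Ik and Ndufa2 (26.2, 72.8). In clone 3 they lay at Diap1 (22.5, 69.5), Zmat2 (21.2, 65.1) and the Vault RNA gene (21.0, 64.5). All of these were found in both lists.

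The WT-only flank peaks included the shared promoter of Hars and Hars2, which encode the cytosolic and mitochondrial histidyl-tRNA synthetases. It ran from 36942545 to 36943378 (834 bp), with values of 19.9 and 15.9 and a percentile of 42.0. The others were an intergenic peak before Tmco6 (percentile 16.6) and one before Arap3 (percentile 9.65). The clone 3-only flank peaks lay in introns of Diap1, with percentiles of 2.48 and 19.3.

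Hdac3, the histone deacetylase that Spen is known to recruit through its corepressor partners, also starts in the region and had no peak in its promoter window in either list, although a window of 2000 bp would hold the shared Rell2 peak in both. In all, 9 of 18 other coding genes with a start in the region had a promoter peak in WT (50%, interval 29 to 71) and 5 of 18 in clone 3 (27.8%, interval 12.5 to 50.9). Both intervals hold the share of all coding genes, 44.8% in WT and 40.9% in clone 3. The genes that had one in WT only were Taf7, Hars, Hars2 and Arap3, and the lincRNA Gm16882 did too.

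The sequence of these promoters was mostly unique. A median of 100% of the 75-base words of the 47 protocadherin promoters were unique in the genome, the lowest share was 88.9%, and 44 of 47 were unique throughout. Their GC content was low, with a median of 37.9% against 49.2% in other coding promoters, and their ratio of observed to expected CpG was 0.352 against 0.401. The promoters with a peak had 51.8% GC at Pcdhac1 and 48.5% at Pcdhgc3. Of the promoters without a peak, that of the last alpha start had 57.6% GC and that of Pcdhgc5 had 48.4%. Another alpha one and a gamma one had 50%. Whether base composition takes part in the absence of peaks was not tested.

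The distance from a start to the nearest peak differed between the clusters. In WT its median was 92.1 kb for the 11 alpha starts, 49.5 kb for the 26 beta starts and 8.90 kb for the 10 gamma starts. In clone 3 it was 92.1, 23.5 and 24.4 kb. The alpha starts lie on 10 of 14 alpha frames and the gamma starts on 9 of 22 gamma frames. These medians thus leave out the exons that the annotation lacks, and distances from those were not measured. In WT the nearest peak was in that list only for 0 of 11 alpha, 5 of 26 beta and 6 of 10 gamma starts, against 24.2% of other coding starts. In clone 3 this held for 0 of 11 alpha, 18 of 26 beta and 4 of 10 gamma starts, against 19.1%. Neighbouring starts share a nearest peak, so these counts rest on few peaks. The median over the starts of other coding transcripts was 6.01 kb in WT and 8.44 kb in clone 3. Within 10 kb of a peak there were 8 of 47 starts in WT and 13 in clone 3, of which 2 and 7 were beta starts and 5 in each list gamma starts. Of the other coding starts 56.8% in WT and 52.5% in clone 3 lay that near to a peak.

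Of 12 protocadherin genes outside the clusters, 5 had a promoter peak in WT (41.7%, interval 19.3 to 68.0) and 4 in clone 3 (33.3%, interval 13.8 to 60.9). These intervals overlap those of the clustered genes and hold the shares of all coding genes, 44.8% and 40.9%. Pcdh8, Pcdh17, Pcdh18 and Pcdh19 had one in both lists and Pcdh10 in WT only. Of 15 genes for factors known to act on the clusters, 14 had a promoter peak in WT (93.3%, interval 70.2 to 98.8) and 13 in clone 3 (86.7%, interval 62.1 to 96.3), against the same 44.8% and 40.9%. These were Ctcf, the cohesin genes Rad21, Smc1a, Smc3, Stag1 and Stag2, the cohesin release factor Wapal, the DNA methyltransferases Dnmt1 and Dnmt3a, and Smchd1, Trim28 and Rest in both lists. The cohesin loader Nipbl and the H3K9 methyltransferase Setdb1 had one in WT only, and Dnmt3b in clone 3 only.

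Other gene families that stand in clusters differed from each other in this measure. Of 1113 olfactory receptor genes (Olfr) 1 had a promoter peak in WT and 3 in clone 3, and of 40 Hox gene models, of which 2 are named Hoxa3, 4 and 3. Of 67 histone genes it was 54 in WT and 51 in clone 3. The shares of all coding genes are the 44.8% and 40.9% given above.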

How the data were processed

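Read processing was done by the authors. Their standard analysis used uniquely mapped, deduplicated read pairs on mm9 (CutAdapt, Bowtie2, Picard), and they also mapped with repeated reads placed at random. The paper describes peak calling and the IDR filter under the standard analysis, but does not say that the deposited lists came from it. MACS2 peaks (q of 0.01) were called for each technical replicate and those with an IDR under 0.05 formed a list. The deposited columns give coordinates, length, IDR and 1 value per replicate. The replicate values, deposited on a scale with no name, were averaged into a score that served only to rank peaks within a list.

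Chromosomes 1 to 19 and X held 22698 of 22753 peaks in WT and 23656 of 23722 in Spen KO clone 3, and these were used. The reference was the mm9 sequence with its GENCODE annotation. RefSeq lengths, from another build, gave names only. Sequence words of 75 and 36 bases were counted over both strands. Identities are from BLAST 2.17.0. The text names every peak of the gene span, every member with a promoter peak, and in the flanks each peak of 1 list and the 3 highest-scoring peaks of each list. The members and lists were chosen with earlier results of these data known. Overlaps and promoter queries were tested on simulated data. Alternatives covered the overlap, the score, the list length, the flank, the promoter window and the word length. The tools were numba 0.67.0, matplotlib 3.10.9, pandas 2.3.3, numpy 2.4.6 and scipy 1.17.1 under Python 3.11.15.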

Additional observations from a re-analysis of the deposited data

How the results depend on the processing

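Of 61 alternatives over 15 results, 34 left a count within 1.5 times its value or a share inside its interval. Keeping only peaks at or above the median score left 12 WT and 9 clone 3 peaks in the region, 3 WT-only and 0 clone 3-only, with 6 and 4 peaks in the gene span. Of these WT-only peaks 2 were so in the full lists, and the other lost its clone 3 partner to the score limit. Under it 1 protocadherin gene had a promoter peak in each list, at 29.2% and 25% of coding genes, and 1 frame in each list had a peak at its start and 1 in its last 500 bp. Using only the 5′ end of each gene model left 0 protocadherin genes in either list, against 40.5% and 36.7% of coding genes, since the merged models start far from Pcdhac1 and Pcdhgc3. The share of coding genes was 44.0% and 40.1% with 500 bp upstream, 45.9% and 42.0% with 2000 bp, and 45.4% and 41.6% by midpoint, and 39.8% in clone 3 with lists of equal length. With the last 300 bp in place of 500, 0 WT frames and 1 clone 3 frame held a peak midpoint. The alternatives on frames were chosen after seeing the data. No paired analysis was possible because each line had 1 list, and replicates could not be left out in turn because a list holds only peaks found in both. The lists give no reads, so weak peaks near the IDR threshold and absent peaks cannot be told apart from differences in depth.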

Other observations

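Some span peaks lay near LINE sequence. Within 8 kb of the clone 3-only peak near Slc25a2 the mm9 sequence matched an L1Md_F element over 2571 bp at 86.2% identity, and an open frame of 1281 codons with repeated sequence began 1422 bp after the peak. The shared intergenic peak between Pcdhb22 and Slc25a2 had a match of 2264 bp at 86.9%, and the WT-only peak before Pcdhb1 one of 585 bp at 92.1%. The other peaks of the span had no match of at least 500 bp. Matches were sought after the values had been seen, to 2 L1Md_F elements, and their part in these peaks was not tested. How many peaks of the whole lists lie as near to such a match was not counted.

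Over the whole span 90.1% of 75-base words and 81.2% of 36-base words were unique in the genome. Among protocadherin frames the share of unique 75-base words was at least 81.4%. The 3 frames left out by this same measure had at most 4.69%, so the minimum rests on that cut.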
